A study of Mus musculus with 17 samples.

Results

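The general transcription machinery and Mediator were represented by 99 genes. They were all autosomal protein-coding genes of GENCODE M21 whose symbols start with Polr1, Polr2, Polr3, Gtf2 or Gtf3 and a letter, or with Med or Taf and a number. The annotation held 20807 autosomal protein-coding genes in all. The rule uses symbols and no H3.3 value, although it was written with earlier results of these data known. Another 5 genes with such symbols lie on the X chromosome and were kept apart.

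The series measured H3.3 occupancy by CUT&RUN, which sequences the DNA that an antibody-tethered nuclease cuts free from chromatin. Pachytene spermatocytes were purified by Sta-Put sedimentation from pooled adult testes and stored frozen. Arid1a WT mice carried the floxed Arid1a allele (fl/fl or fl/+) without Cre, and Arid1a cKO mice carried Arid1a fl/fl with the transgene Stra8-Cre Tg/0, which is active from spermatogonia onwards. There were 2 Arid1a WT and 3 Arid1a cKO libraries of H3.3, and another 12 libraries of ARID1A were not analysed here. Excision by this Cre was incomplete, so the Arid1a cKO cells included some that still held ARID1A. The files used here give no expression values, so the purity of the cells could not be checked against markers.

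The deposited data are 1 combined list of peaks per genotype. A row is a line of such a list, and a gene was scored as having a row if a row lay within 1 kb of the start of any of its annotated transcripts. For every row the list gives the fold over a rabbit IgG control and a -log10 q of the peak. Each list was made by overlapping the peaks of its libraries, so a gene has no value per library. The fold and -log10 q of a row are those of a called peak, and the library or libraries behind them are not stated. No spread between replicates, and therefore no test of the genotype, can be had, and the depth behind the lists is unknown. The intervals given are 95% Wilson intervals. They take genes as independent and reflect counting error alone.

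The machines studied here carry out transcription in every cell. RNA polymerase I makes the large ribosomal RNA, RNA polymerase II makes messenger RNA, and RNA polymerase III makes tRNA and other small RNAs. RNA polymerase II is placed at promoters by general factors, of which TFIID binds promoter DNA through TBP and its TAF subunits, and Mediator carries signals from enhancer-bound factors to the polymerase. Male germ cells also express variant subunits such as TAF4B, TAF7L and the TFIIA variant encoded by Gtf2a1l. H3.3 is a histone H3 variant deposited outside DNA replication, at active promoters among other places.

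The promoters of 5 members show the sequence that H3.3 rows did or did not cover. Med1, Taf3 and Polr2c were the members of highest fold in Mediator, TFIID and RNA polymerase II whose rows lay near no other coding start. Gtf2a1 and Gtf2a1l are the somatic and the germline gene for the large TFIIA subunit, with and without a row. Each sequence runs 5′ to 3′ on the gene's strand of GRCm38, from 250 bases before a transcript start to its 30th base. For a gene with a row, the start is the most upstream that lies within 1 kb of the row. Capitals mark matches, on either strand, to the ETS factor motif CCGGAAG, the GC box letters GGGCGG, the core promoter motif TATAAA and the motif CCAAT. Motifs of NRF1, YY1 and the cAMP response element, spelled out with the counts over all promoters, had no match in these stretches.
Med1, chr11:98193264-98193543, minus strand: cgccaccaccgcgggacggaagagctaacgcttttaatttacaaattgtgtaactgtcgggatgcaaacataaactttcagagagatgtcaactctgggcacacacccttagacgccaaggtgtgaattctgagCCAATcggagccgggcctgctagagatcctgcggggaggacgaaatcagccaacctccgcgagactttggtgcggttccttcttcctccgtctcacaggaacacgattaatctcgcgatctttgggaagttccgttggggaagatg
Taf3, chr2:10048567-10048846, minus strand: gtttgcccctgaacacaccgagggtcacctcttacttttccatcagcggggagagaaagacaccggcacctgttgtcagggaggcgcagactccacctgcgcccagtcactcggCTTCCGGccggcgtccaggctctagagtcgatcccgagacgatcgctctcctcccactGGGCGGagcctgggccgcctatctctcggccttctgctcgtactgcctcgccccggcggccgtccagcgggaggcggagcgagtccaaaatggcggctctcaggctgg
Polr2c, chr8:94857200-94857479, plus strand: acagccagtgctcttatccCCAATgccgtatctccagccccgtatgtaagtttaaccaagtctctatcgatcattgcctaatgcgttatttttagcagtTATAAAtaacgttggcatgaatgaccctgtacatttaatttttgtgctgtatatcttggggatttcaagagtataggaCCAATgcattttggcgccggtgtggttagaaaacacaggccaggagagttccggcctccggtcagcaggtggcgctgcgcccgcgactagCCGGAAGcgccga
Gtf2a1, chr12:91590458-91590737, minus strand: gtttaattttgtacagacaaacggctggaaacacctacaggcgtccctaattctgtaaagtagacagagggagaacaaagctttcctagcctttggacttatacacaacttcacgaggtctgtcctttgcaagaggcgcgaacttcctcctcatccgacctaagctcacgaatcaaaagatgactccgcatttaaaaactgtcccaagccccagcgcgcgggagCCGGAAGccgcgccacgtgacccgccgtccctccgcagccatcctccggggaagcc
Gtf2a1l, chr17:88668410-88668689, plus strand: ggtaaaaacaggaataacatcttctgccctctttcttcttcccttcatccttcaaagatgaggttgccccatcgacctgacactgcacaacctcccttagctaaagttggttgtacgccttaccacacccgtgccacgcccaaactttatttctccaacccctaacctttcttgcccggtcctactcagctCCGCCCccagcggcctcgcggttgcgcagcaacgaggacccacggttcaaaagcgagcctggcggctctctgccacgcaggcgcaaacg

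Of the 280 bases printed for each gene, the row of the Arid1a cKO list held 79 at Med1, 87 at Taf3, 107 at Polr2c and 25 at Gtf2a1. At these genes the rest of the row lay downstream of the stretch shown. Gtf2a1l had none, and its nearest row lay 602499 bp from a start. In the stretches printed, the ETS motif was found at Taf3, Polr2c and Gtf2a1, and the only GC boxes were at Taf3 and Gtf2a1l. The CpG class and the motif counts given below use a representative start of each gene. At Med1 and Gtf2a1 that start is not the one printed. At the representative start Med1 had an ETS motif, a GC box and CCAAT. Gtf2a1 had a GC box and TATAAA there, and no ETS motif.

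In Arid1a cKO, 54 of the 99 genes had an H3.3 row, a share of 54.5% (44.8 to 64.0%). Of all autosomal protein-coding genes 29.5% had one (6145 of 20807). With a row were 17 of 28 Mediator genes, 9 of 13 TFIID genes and 5 of 7 genes for subunits shared between polymerases. In Arid1a WT none of the 99 genes had a row, and neither did any other autosomal protein-coding gene (0%). The Arid1a WT list holds only 4 autosomal rows among its 228, and 13 members lie on a chromosome with such a row. With depth unknown, an absent WT row cannot be told apart from a list too short to hold it.

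Most promoters of these genes are CpG-rich, and in that class the share with a row was close to that of other genes. A promoter, from 250 bases before to 50 after a representative start, was called CpG-rich with a GC content of at least 50% and a CpG observed over expected of at least 0.6. Of the members 82 were in this class (82.8%), against 45.0% of all autosomal genes. A row was present at 46 of these 82 members (56.1%, 45.3 to 66.3%). Of all autosomal genes in the class 52.9% had one, which lies inside the interval of the members. The other 17 members had a row in 8 cases (47.1%, 26.2 to 69.0%), against 10.4% of all genes outside the class. Another annotated start was CpG-rich for 6 of those 8 members. Of the 7 members with no CpG-rich start at all, 2 had a row (28.6%), against 4.10% of all such genes.

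**Figure D1:**
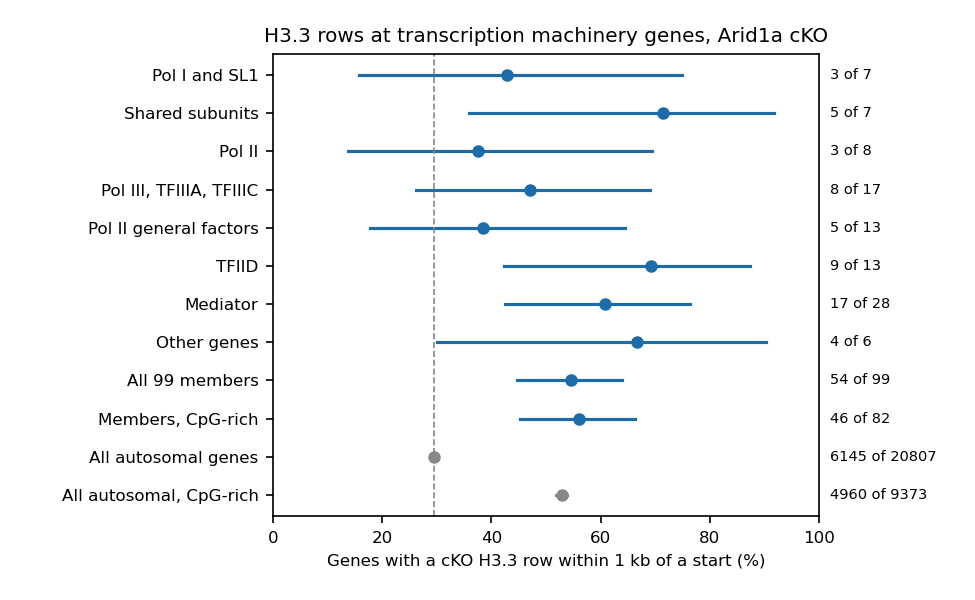
Share of genes with an Arid1a cKO H3.3 row within 1 kb of a transcript start (x axis, percent) for each machine, for the members together and for all autosomal protein-coding genes. Points are shares, lines are 95% Wilson intervals and the dashed line is the 29.5% of all autosomal genes. The intervals of the 8 groups of members overlap one another, and the CpG-rich members (56.1%) sit beside all CpG-rich genes (52.9%).

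A coding start of another gene, on either strand, lay within 1 kb of a start for 27 of the 99 members (27.3%), against 13.1% of all autosomal genes. With such a neighbour, 15 of 27 members had a row (55.6%), against 58.0% of all genes with a neighbour. Without it, 39 of 72 members had a row (54.2%), against 25.2% of all genes without. At 18 of the 54 members with a row, the same row lay within 1 kb of the start of another coding gene, so the row cannot be assigned to either gene.

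In RNA polymerase I and its promoter factor SL1, rows were found at 3 of 7 genes (42.9%, 15.8 to 75%). Polr1a and Polr1b encode the pair of large catalytic subunits and Polr1e a subunit of its heterodimer, and 0 of these 3 genes had a row. Some other subunit genes of this polymerase did have one. Among them were Twistnb (5.21) and Cd3eap (3.65), whose symbols fall outside the rule, and Polr1c and Polr1d, shared with polymerase III. Znrd1, a subunit gene likewise outside the rule, had none. SL1 recruits the enzyme to ribosomal DNA through TBP-associated factors. Taf1b, Taf1c and Taf1d had a row and Taf1a did not. Taf1d had the highest fold of all members, 7.64, with a -log10 q of 10.6 and a width of 399 bp at chr9:15306131-15306529. Its row was centred 1 bp from a start and was also near the start of 4931406C07Rik. By fold it ranked 142 among the 6145 genes with a row. Taf1b had a fold of 4.60, and its promoter at the representative start was CpG-poor (GC 46.7%, CpG ratio 0.251).

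Taf1c was the member nearest the 1 kb limit. Its row of highest fold (4.24, -log10 q 3.57, 232 bp, chr8:119602455-119602686) lay 877 bp from a start. A second row, of fold 3.18 and 1740 bp wide (chr8:119599131-119600870), covered an annotated start of the gene. Only transcripts not annotated as protein-coding start there, and with protein-coding transcripts alone Taf1c had no row.

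Subunits shared between the polymerases had a row in 5 of 7 cases (71.4%, 35.9 to 91.8%). Polr1c and Polr1d encode the pair of subunits that anchors assembly of polymerases I and III, and both had a row. Polr1c had a fold of 6.10, a -log10 q of 6.63 and a width of 364 bp (chr17:46248064-46248427), and this row lay nearer the start of Yipf3. Polr1d had a fold of 5.50, a -log10 q of 7.29 and a width of 1716 bp (chr5:147076187-147077902). Of the subunits common to all 3 polymerases, Polr2e (4.06), Polr2h (4.85) and Polr2l (4.59) had a row and Polr2f and Polr2k did not.

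RNA polymerase II had a row at 3 of 8 genes (37.5%, 13.7 to 69.4%). The gene of its largest subunit, Polr2a, and that of the second largest, Polr2b, had none. Both promoters were CpG-rich (GC 63.0% and 71.0%), a class in which 52.9% of all autosomal genes had a row. The nearest rows were 42144 bp and 43424 bp away. Polr2d, Polr2g and Polr2m also had none. Polr2d and Polr2g encode the stalk, and Polr2m an associated factor that limits Mediator-independent transcription. Polr2c had the highest fold, 5.39, with a -log10 q of 7.14 and a width of 541 bp at chr8:94857373-94857913. Polr2i and Polr2j followed at folds of 3.47 and 3.29.

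RNA polymerase III with its factors had a row at 8 of 17 genes (47.1%, 26.2 to 69.0%). Among the polymerase's own subunits, Polr3c (3.72), Polr3d (4.10) and Polr3e (3.87) had a row and the 2 catalytic subunits Polr3a and Polr3b did not. Polr3f, Polr3g, Polr3gl and Polr3k also had none. TFIIIC binds the internal promoters of tRNA genes, and of its 6 genes Gtf3c1 (4.09), Gtf3c4 (4.32) and Gtf3c5 (5.04) had a row while Gtf3c2, Gtf3c3 and Gtf3c6 did not. Gtf3a, which encodes the 5S RNA gene factor TFIIIA, had a row of fold 3.08 and the lowest -log10 q of any member, 1.93.

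The catalytic subunits of all polymerases were therefore without a row in this list. This held for Polr1a, Polr1b, Polr2a, Polr2b, Polr3a and Polr3b. It is a description of 6 genes singled out after their values were seen, and 4 of them had a CpG-rich promoter. Of all autosomal genes in that class 52.9% had a row. Outside it, where Polr1a and Polr3b fall, 10.4% had one.

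General factors of RNA polymerase II had a row at 5 of 13 genes (38.5%, 17.7 to 64.5%). TFIIA, which steadies TBP on DNA, had one at Gtf2a1 (4.86) and Gtf2a2. Gtf2a2 had a fold of 5.51, a -log10 q of 7.48 and a width of 462 bp (chr9:70012493-70012954). Gtf2b, the single gene of TFIIB, had the narrowest row of any member, 105 bp, with a fold of 4.12. TFIIE (Gtf2e1 and Gtf2e2) and TFIIF (Gtf2f1 and Gtf2f2), which join the complex with the polymerase, had 0 rows at 4 genes. All of these 4 promoters were CpG-rich, a class in which 52.9% of all autosomal genes had a row. With 2 genes each, the interval of either factor runs from 0 to 65.8%.

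TFIIH opens the promoter and also works in DNA repair. Gtf2h5, its smallest subunit, had the second highest fold of all members, 6.15, with a -log10 q of 6.53 and a width of 525 bp (chr17:6079519-6080043). That row was also near the start of Serac1. Gtf2h1, Gtf2h2 and Gtf2h3 had no row. Gtf2h4 was scored with a row of fold 4.91, -log10 q 6.10 and width 623 bp (chr17:35667343-35667965), but it lay 795 bp from a start and nearer that of Vars2. With protein-coding transcripts alone Gtf2h4 lost its row.

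TFIID had a row at 9 of 13 genes (69.2%, 42.4 to 87.3%). Taf3, whose protein reads methylated histone H3 at active promoters, had the highest fold, 5.98, with a -log10 q of 8.32 and a width of 496 bp (chr2:10048158-10048653). Taf8 followed at 5.43, with a -log10 q of 4.57 and a width of 304 bp (chr17:47502036-47502339). Taf4 (4.98), Taf2 (4.91), Taf4b (4.09), Taf12 (4.08), Taf9 (3.94), Taf11 (3.79) and Taf10 (3.48) also had a row. Taf5 and Taf6, part of the core of the complex, Taf7 and Taf13 had none. All 4 of these promoters were CpG-rich, a class in which 52.9% of all autosomal genes had a row. The Taf9 row was also near the starts of Ak6 and Rad17 and the Taf11 row near that of Anks1.

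Mediator had a row at 17 of 28 genes (60.7%, 42.4 to 76.4%). In the head, which touches the polymerase, 3 of 7 genes had a row, Med17 (4.10), Med22 and Med8 (4.36). Med6, Med11, Med18 and Med20 had none. Med22 had a fold of 6.10, a -log10 q of 8.70 and a width of 665 bp (chr2:26910351-26911015), and this row was also near the start of Rpl7a, a ribosomal protein gene. In the middle, Med1, Med9 (3.48) and Med21 had a row and Med4, Med7, Med10 and Med31 did not. Med1, the main contact of nuclear receptors, had a fold of 6.05, a -log10 q of 6.60 and a width of 385 bp (chr11:98192958-98193342). Med21 had a fold of 5.80, a -log10 q of 6.62 and a width of 313 bp (chr6:146642576-146642888).

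In the tail, where many activators bind, Med15 (5.35), Med16 (4.62), Med23 (5.27) and Med29 (4.87) had a row and Med24, Med25 and Med27 did not. The Med29 row covered the start region of Paf1 as well, an elongation factor gene. All 3 members assigned to the kinase module had a row, beside 29.5% of all autosomal genes and 52.9% of those with a CpG-rich promoter. With a -log10 q of at least 3, Med12l and Med13l lost theirs. The folds were 3.14 at Med12l, 4.32 at Med13 and 2.91 at Med13l. The partner genes of this module with other symbols, Cdk8, Cdk19 and Ccnc, had none. Of the genes not assigned to a module, Med19 (3.84), Med26 (3.61), Med28 (4.14) and Med30 (2.91) had a row.

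The remaining 6 genes carry such symbols but belong to other families. Gtf2i, which encodes TFII-I, had the widest row of any member, 1936 bp, with a fold of 4.05. Gtf2ird2, of the same family, had the highest fold in this group, 4.40, with a -log10 q of 5.03 and a width of 635 bp (chr5:134183956-134184590), and Gtf2ird1 had none. Taf15, of the FET family of RNA-binding proteins, had a fold of 4.14. Of the genes of the SAGA coactivator, Taf6l had a fold of 2.91 and Taf5l had no row.

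**Figure D2:**
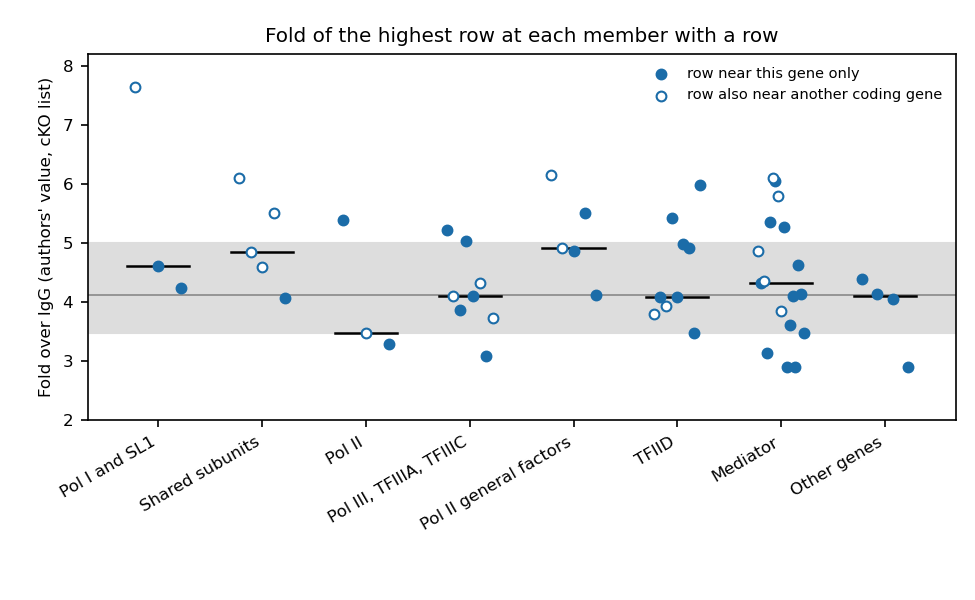
Fold over IgG of the highest Arid1a cKO row at each of the 54 members with a row (y axis, linear scale), by machine. Points are genes, open where the row was also within 1 kb of another coding start, black lines are medians, and the grey line and band are the median (4.12) and the middle quartiles of all 6145 autosomal genes with a row. Taf1d (7.64) stands above the other members, and most points lie in or near the band.

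Rows at these genes had a fold close to that at other genes. The median fold of the 54 members was 4.32 (range 2.91 to 7.64), against 4.12 (2.81 to 14.9) over all 6145 genes with a row. Of the members 31 were above the median of all genes with a row. The 4 members of highest fold, Taf1d, Gtf2h5, Med22 and Polr1c, each shared the row with another coding gene. The lowest fold of a member, 2.91, was that of Med13l, Med30 and Taf6l, a value that 917 of the 12183 rows of the list share. A -log10 q of at least 3 was reached by 44 members with a row (81.5%), against 70.5% of all genes with a row. The median width was 403 bp (105 to 1936), against 449 bp.

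The rows sat close to transcript starts. At 44 of 54 members the row covered a start (81.5%, against 76.7% of all genes with a row). The centre was within 250 bp of the nearest start at 51 members (94.4%, against 81.0%). It lay downstream of that start at 34 members (63.0%, against 61.6%), and the median offset was 34.2 bp downstream, against 39 bp. By annotation the centre fell in an exon of the member at 31 genes, in an intron at 10 and outside its transcripts at 13. All but 1 member had exactly 2 rows, which in each case formed a single region with a single fold. Exactly 2 rows were also found at 88.8% of all autosomal genes with a row. At 26 members the rows differed in width. Fold belongs to a called peak, whereas width is that of the row as listed.

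**Figure D3:**
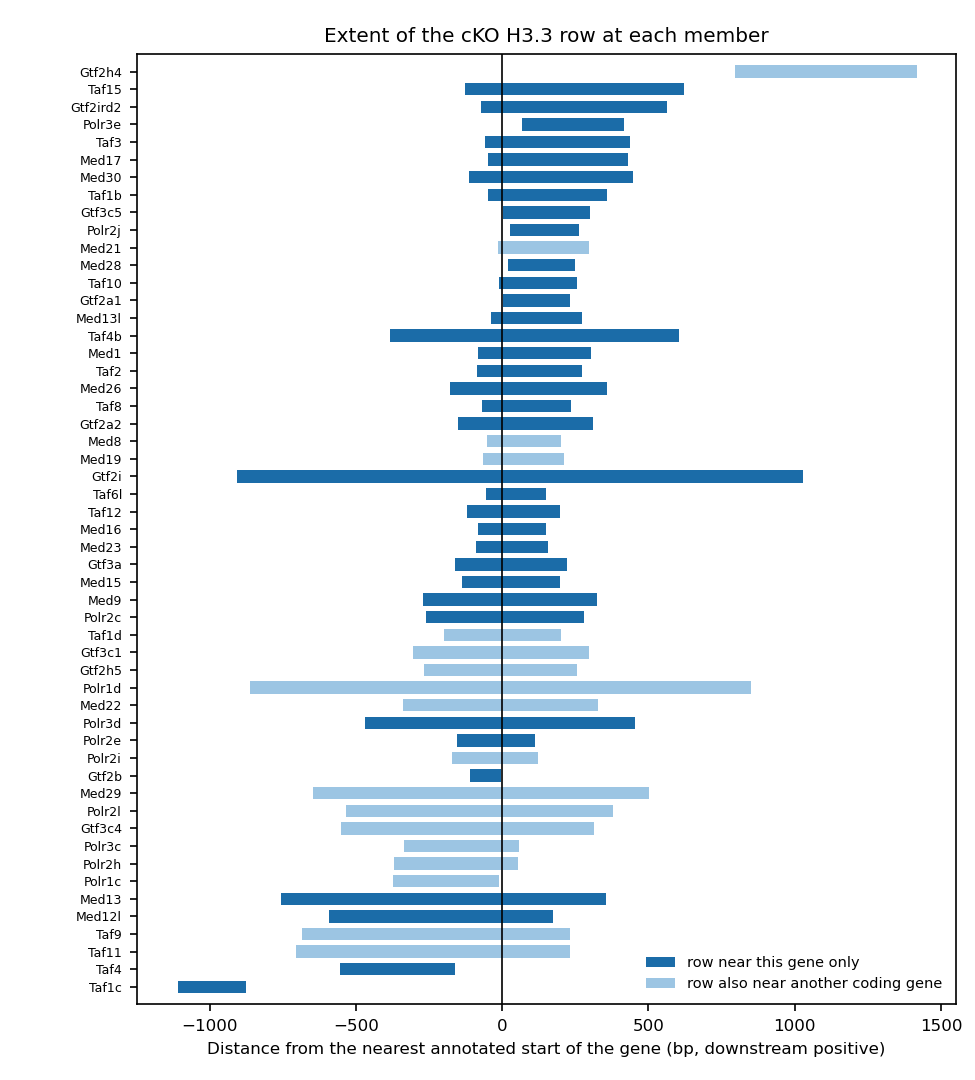
Extent of the highest Arid1a cKO row at 53 of the 54 members with a row, in bp from the nearest annotated transcript start, with downstream positive. Each bar is a gene, light where the row was also within 1 kb of another coding start. At 43 of the genes drawn the bar crosses the start, and Gtf2h4 and Taf1c lie at the edges.

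Members without a row did not lie just past the limit. None of the 45 had a row within 5 kb of a start, and for 38 the nearest was over 10 kb away. Med25 was closest at 6077 bp, then Polr1e at 6120 bp and Taf6 at 6935 bp.

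The median GC content of the promoter was 64.3% with a row and 56.0% without, against 63.0% and 52.7% over all autosomal genes. The median CpG observed over expected was 0.841 with a row and 0.806 without, against 0.824 and 0.370 over all autosomal genes. GC content thus differed in the same direction by a similar amount, whereas the CpG ratio of members differed far less than that of all genes.

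**Figure D4:**
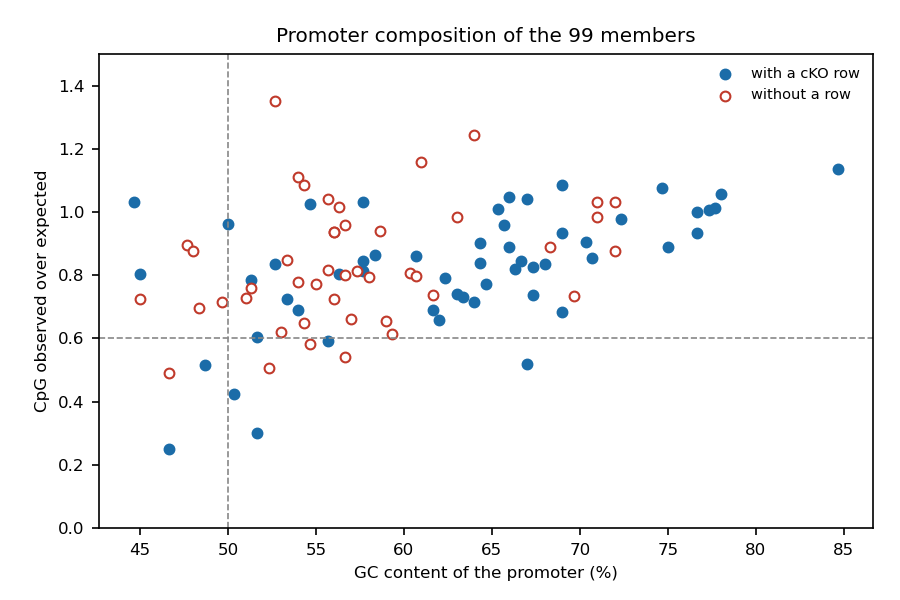
GC content (x axis, percent) and CpG observed over expected (y axis) of the promoter of each of the 99 members, filled with an Arid1a cKO row and open without. Dashed lines mark the limits of the CpG-rich class (50% and 0.6), and both kinds of gene lie in it, with medians of 64.3% GC with a row and 56.0% without.

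Motifs were searched on both strands of the same promoter window of every autosomal gene. CCGGAAG, the ETS motif, was found in 37.4% of members, against 11.4% of all promoters and 19.8% of CpG-rich ones. It was as frequent in members with a row (37.0%) as without (37.8%). GGGCGG, the GC box, was found in 74.1% of members with a row and 60.0% without, against 46.0% of all and 76.8% of CpG-rich promoters. The NRF1 motif GCGCATGC was found in 8.08% of members, against 3.47% of all and 6.28% of CpG-rich promoters. The YY1 motif AAGATGGC was also found in 8.08%, against 3.12% and 5.05%. TGACGTCA, the cAMP response element, was found in 5.05% of members, against 2.49% and 4.03%. TATAAA was found in 11.1% of members, against 12.7% of all and 4.70% of CpG-rich promoters, and CCAAT in 37.4%, against 38.2% and 36.6%.

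Somatic genes and their germline paralogs showed no single order. Taf4 had a row of fold 4.98, -log10 q 4.28 and 392 bp (chr2:179976809-179977200), and its germ cell paralog Taf4b had one of fold 4.09, -log10 q 4.46 and 987 bp (chr18:14782863-14783849). The Taf4 row ended 163 bp from a start, while that of Taf4b covered its start. Taf7 had no row, whereas X-linked Taf7l had one of fold 3.63, -log10 q 3.51 and 568 bp (chrX:134475032-134475599). Gtf2a1 had a row (4.86, -log10 q 3.64, 229 bp, chr12:91590254-91590482) and Gtf2a1l had none. Both TFIIA promoters were CpG-rich at the representative start, which for Gtf2a1 is not the start whose sequence is printed above.

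Among TBP relatives, Tbp itself had no row within 1 kb. Tbpl1, which spermatids require, had a row of fold 4.47, -log10 q 5.21 and 1091 bp (chr10:22730879-22731969), and Tbpl2, known from oocytes, had none. Taf9 had a row (3.94, -log10 q 3.67, 915 bp, chr13:100650896-100651810), as did X-linked Taf9b (3.83, -log10 q 2.99, 461 bp, chrX:106219470-106219930). Polr3g and Polr3gl, alternative subunits of RNA polymerase III, both had none, as had Taf5 and Taf5l. Taf6 had none and Taf6l had one (2.91, -log10 q 2.11, 205 bp, chr19:8786109-8786313).

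In the Mediator kinase module, X-linked Med12 had no row and its autosomal paralog Med12l had one (3.14, -log10 q 2.55, 765 bp, chr3:59005897-59006661). Both Med13 (4.32, -log10 q 4.02, 1113 bp, chr11:86357246-86358358) and Med13l (2.91, -log10 q 2.11, 310 bp, chr5:118560702-118561011) had one. Over all these pairs 11 of 21 genes had a row, beside 29.5% of all autosomal genes and 52.9% of those with a CpG-rich promoter. The 21 include X-linked Taf7l, Taf9b and Med12, which the autosomal shares do not cover.

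Partners of the machines with other symbols, taken from a fixed list, had a row at 26 of 47 autosomal genes (55.3%, 41.2 to 68.6%). That share stands beside 29.5% of all autosomal genes and 52.9% of those with a CpG-rich promoter, and the latter lies inside the interval. SNAPc, which drives snRNA genes, had a row at 4 of 5 genes, with Snapc2 at a fold of 7.89. TFIIIB had one at 2 of 3 genes, Brf1 (3.80) and Bdp1 (3.94). Other genes of polymerases I and III had one at 5 of 7, among them Maf1, the repressor of RNA polymerase III, at 7.0. Pausing and elongation genes had one at 13 of 21. These included the NELF subunits Nelfa (3.65), Nelfb (5.73), Nelfcd (4.58) and Nelfe (4.22), whereas Supt4a and Supt5, which encode DSIF, had none. Of the TFIIH genes with other symbols, Ercc2 (4.19) had a row and Ercc3, Cdk7, Ccnh and Mnat1 did not.

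Of the 5 X-linked genes with the symbols of these machines, Taf7l, Taf9b and Med14 (4.14) had a row and Taf1 and Med12 did not. The share over all X-linked genes was not computed, so these genes cannot be set against a background.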

How the data were processed

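The authors trimmed and aligned the reads to mm10 (bowtie2), removed duplicates, called broad peaks with MACS2 against a rabbit IgG library of another study, and overlapped replicate peaks into 1 list per genotype. The deposited fold is a linear ratio over that control, and the deposited -log10 q is the authors' value for the called peak. The control came from pachytene-enriched cells of juvenile testes, whereas the H3.3 cells came from adult testes. The H3.3 antibody was a mouse monoclonal, so the rabbit IgG did not match it in species. Overlapping can shorten or repeat a row but leaves its fold, so width and fold can refer to different intervals. No mapping-quality filter is described in the sources used here, which could matter at repeated sequence. Depth is unknown.

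Members, gene lists and tests were chosen with earlier results of these data known. Members were sorted into machines by hand. Where several rows were within 1 kb of a start, that of highest fold was used. Genes were named by rule: every member under its machine, with full values for the 10 of highest fold, the highest of each machine, those next to the 1 kb limit and the paralogs. The values of 1 member are not reported here, though it is counted in all totals. The representative start was that of the protein-coding transcript in CCDS, APPRIS principal and best supported, ties to the most upstream. This rule was chosen after values were seen and replaced the start most coding transcripts share. Coordinates are 1-based on mm10 (GRCm38), with GENCODE M21 starts, and sequence is from the RefSeq copy of GRCm38.

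Shares are compared as descriptions with 95% Wilson intervals. No test of genotype or of the list was run. Scoring was tested on simulated data with planted rows. Columns of samples that no label matched numbered 0. Python 3.11.15, numpy 2.4.6, pandas 2.3.3, scipy 1.17.1, pysam 0.24.0 and matplotlib 3.10.9 were used. ARID1A libraries were not analysed here.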

Additional observations from a re-analysis of the deposited data

How the results depend on the processing

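Of 114 recomputed values over 17 results, 96 stayed within the counting interval or within 1.5 times the count and 18 moved. The intervals of small groups are wide, such as 15.8 to 75% for the 7 genes of RNA polymerase I, so staying inside them says little. The share of members with a row fell from 54.5% to 44.4% with a -log10 q of at least 3 and to 21.2% (21 genes) with at least 5, and that of all autosomal genes from 29.5% to 20.8% and 9.56%. At that stricter threshold the shares were 21.4% for Mediator, 15.4% for TFIID, 16.7% for the other genes, 12.5% for RNA polymerase II and 11.8% for RNA polymerase III. They were 57.1% for shared subunits, 28.6% for RNA polymerase I and 23.1% for the general factors of RNA polymerase II. With rows within 500 bp, 53.5% of members and 28.9% of all genes had a row. With rows that cover a start the shares were 45.5% and 22.8%, and with rows that overlap another row 54.5% and 27.1%. Without genes that share a start they were 54.2% and 25.2%, and with the representative start alone 52.5% and 27.5%. For the general factors of RNA polymerase II the share was 15.4% with rows that cover a start. With a -log10 q of at least 3, 7 paralogs had a row in place of 11, and within 5 kb Tbp gained one.

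The representative start alone and the 2 other definitions of CpG-rich were added after seeing the data. With the class judged at any start, 49.6% of all CpG-rich genes had a row, beside 56.5% of members. With the class judged at the most shared start, the rule first used, the shares were 53.2% and 59.0%. The libraries of a list are combined, so no replicate could be left out. No paired analysis was possible because the lists do not separate the numbered libraries.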
